A study of Zea mays with 12 samples.

Results

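Described here are 5 maize kernel genes grouped under wounding, browning and jasmonate signaling. Of these, ripening-related protein 3 and TGA4 fell in the defense list alone. The search terms of that list included ripening-related and TGA, so their names sufficed for the match. The 5 genes are *Zm00001d000001* (polyphenol oxidase1), *Zm00001d002160* (wound-responsive family protein), *Zm00001d002055* (ripening-related protein 3), *Zm00001d002029* (protein TIFY 3B) and *Zm00001d002143* (transcription factor TGA4). They were taken by identifier from the expression table analysed here, which is cut off after 720 genes and covers a part of the genome. Ranks, medians, scaling and adjusted p-values below refer to this part. They had been picked with their higher values in *smk7a* at 12 days after pollination (DAP) already known. The comparison at 12 DAP is therefore given as a description, and tests are reported for 20 DAP. For TIFY 3B the comparison at 20 DAP was also known beforehand.

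RNA was sequenced from whole kernels in 4 groups with 3 biological replicates each, namely WT and *smk7a* kernels at 12 DAP and WT and *smk7a* kernels at 20 DAP. The small-kernel mutant *smk7a* is recessive, comes from EMS mutagenesis of the inbred line B73, and is kept as heterozygous plants because homozygotes do not grow normally. WT and mutant kernels shared segregating ears, and it is not given in the sources used here whether WT kernels were partly heterozygous or how many kernels made up a sample. A whole kernel holds endosperm, embryo and the maternal pericarp, which cannot be separated in these values, and more cells of a type and more RNA per cell cannot be told apart. Expression levels are in FPKM (fragments scaled by transcript length and by the mapped fragments of a sample), so levels of different genes are compared per length.

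Polyphenol oxidases oxidize phenols of the catechol type to quinones, which polymerize into the brown pigments seen on cut plant tissue. Jasmonate is the main wound hormone of plants. TIFY proteins of the JAZ type repress jasmonate-responsive transcription until the hormone triggers their breakdown, and in *Arabidopsis* the transcripts of many JAZ genes rise after wounding. TGA factors are bZIP proteins that act with NPR1 in salicylate-dependent defense in *Arabidopsis*. Wound-responsive family proteins are small plant proteins named for transcripts induced by wounding. Ripening-related protein 3 is named after a rice gene, and its deposited annotation places the product in the extracellular region. The deposited synonyms of TIFY 3B include JAZ1 of rice, so these names rest on similarity to genes of other species.

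The endosperm markers in the table (BETL4, endosperm specific protein1 and dull endosperm1) were well expressed in every sample. Their summed level was 519 to 548 FPKM in the WT and 195 to 259 FPKM in *smk7a* at 12 DAP, and 282 to 331 FPKM and 183 to 322 FPKM at 20 DAP. Of the 7 genes described as late embryogenesis abundant, 6 were at 0 in all 12 samples. The sum, which is that of *Zm00001d000135*, was 12.4 to 19.9 FPKM in the WT and 28.0 to 36.2 FPKM in *smk7a* at 12 DAP, without overlap, and 10.03 to 12.7 FPKM and 11.2 to 15.4 FPKM at 20 DAP, with overlap. The 7 photosynthesis markers, of which 3 were at 0 throughout, summed to 4.14 to 9.50 FPKM in the WT and 0.708 to 1.14 FPKM in *smk7a* at 12 DAP, without overlap, and to 2.56 to 4.44 FPKM and 0.313 to 3.62 FPKM at 20 DAP, with overlap. The photosynthesis sum is nearly that of *Zm00001d001857* alone, at 4.14 to 9.39 FPKM in the WT and 0.708 to 0.776 FPKM in *smk7a* at 12 DAP. No other photosynthesis marker exceeded 0.326 FPKM in any sample. Each marker sum thus differed between the genotypes without overlap at 12 DAP, the stage at which the 5 genes had been picked. Of all genes tested at 12 DAP, 51.5% were higher in *smk7a* without overlap, so *Zm00001d000135* does not stand apart. The share that was lower without overlap was not taken. The part of the marker genes in the results below was not tested. The 720 genes summed to between 2864 and 5853 FPKM per sample, and sequencing depth is unknown from FPKM.

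Tests were made on log2(FPKM + 0.1), a scale that understates changes of weakly expressed genes, for each gene that exceeded 1 FPKM in 3 or more samples compared. To pass, a gene needed both an adjusted p-value below 0.05 and more than a 2-fold change. Most of the genes tested were higher in *smk7a* on the deposited scale. For the log2 fold change between *smk7a* and WT (log2FC, positive where *smk7a* was higher) the median was 0.48 over 365 genes at 12 DAP and 0.53 over 336 genes at 20 DAP, and median of ratios scaling, which centers the samples on each other, moved it to 0.01 and -0.02. The fold changes of the 5 genes at 12 DAP and the tested ones at 20 DAP are therefore also given relative to this median or after that scaling.

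*Zm00001d000001* encodes polyphenol oxidase1, the browning enzyme of the set. In the WT at 12 DAP its replicates were at 9.74, 4.12 and 5.06 FPKM. In *smk7a* at 12 DAP they were at 115, 69.5 and 78.8 FPKM. The groups were far apart, and by its mean the gene ranked number 10 of the 720 in *smk7a*, compared with number 157 in the WT. At 20 DAP the WT replicates were at 4.85, 4.07 and 4.62 FPKM. Those of *smk7a* were at 9.03, 8.84 and 9.46 FPKM. All *smk7a* samples at 20 DAP thus lay above the WT of the same stage, but inside the range of the WT at 12 DAP.

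*Zm00001d002160*, the wound-responsive family protein gene, was at 5.23, 8.74 and 16.6 FPKM in the WT at 12 DAP. The *smk7a* replicates of that stage were at 122, 58.9 and 97.1 FPKM. The gene ranked number 8 of 720 by its mean in *smk7a* and number 115 in the WT. At 20 DAP the WT was at 22.9, 17.4 and 23.3 FPKM. The *smk7a* values were 17.2, 21.3 and 52.4 FPKM. Only replicate 3 of *smk7a* lay above the WT at this stage, while the other replicates lay among or below the WT values. The order from the highest group mean was *smk7a* at 12 DAP, *smk7a* at 20 DAP, WT at 20 DAP and WT at 12 DAP, and the middle groups overlapped.

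*Zm00001d002055* (ripening-related protein 3) was a weakly expressed gene that was close to absent in the WT. Its WT values at 12 DAP were listed at 0, 0.421 and 0 FPKM. In *smk7a* at 12 DAP they were 2.60, 2.28 and 2.07 FPKM. At 20 DAP the WT was listed at 0, 0.451 and 0.115 FPKM, and *smk7a* was at 0.933, 1.47 and 1.31 FPKM. Thus every *smk7a* sample of either stage was above every WT sample. A value listed at 0 in FPKM does not show that the transcript was missing. *Zm00001d002057*, which carries the same description, went the other way (a gene singled out after its values were seen). It was listed at 0 in all *smk7a* samples and was between 0.103 and 0.291 FPKM in the WT samples. The sum of both genes was still higher in *smk7a*, at 2.07 to 2.60 FPKM against 0.196 to 0.618 FPKM at 12 DAP and at 0.933 to 1.47 FPKM against 0.212 to 0.554 FPKM at 20 DAP. Reads of near-identical copies could be divided unevenly by the mapping, so the level of either gene alone is uncertain.

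*Zm00001d002029* (TIFY 3B) varied least among the 5 genes on the log2 scale. It was at 9.26, 6.56 and 8.76 FPKM in the WT and at 15.8, 18.5 and 17.3 FPKM in *smk7a* at 12 DAP. At 20 DAP it was at 5.96, 6.23 and 6.15 FPKM in the WT and at 8.89, 10.5 and 8.28 FPKM in *smk7a*. The genotypes did not overlap at either stage. The group means fell in the order *smk7a* at 12 DAP, *smk7a* at 20 DAP, WT at 12 DAP and WT at 20 DAP, of which the second and the third overlapped.

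*Zm00001d002143* (TGA4) was weakly expressed in all groups. Its replicates were at 0.255, 0.352 and 0.839 FPKM in the WT and at 1.03, 1.43 and 1.93 FPKM in *smk7a* at 12 DAP. At 20 DAP they were at 0.730, 0.652 and 0.895 FPKM in the WT and at 0.881, 0.799 and 0.671 FPKM in *smk7a*. The *smk7a* kernels of 12 DAP stood above the other 3 groups, which overlapped each other.

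**Figure D1:**
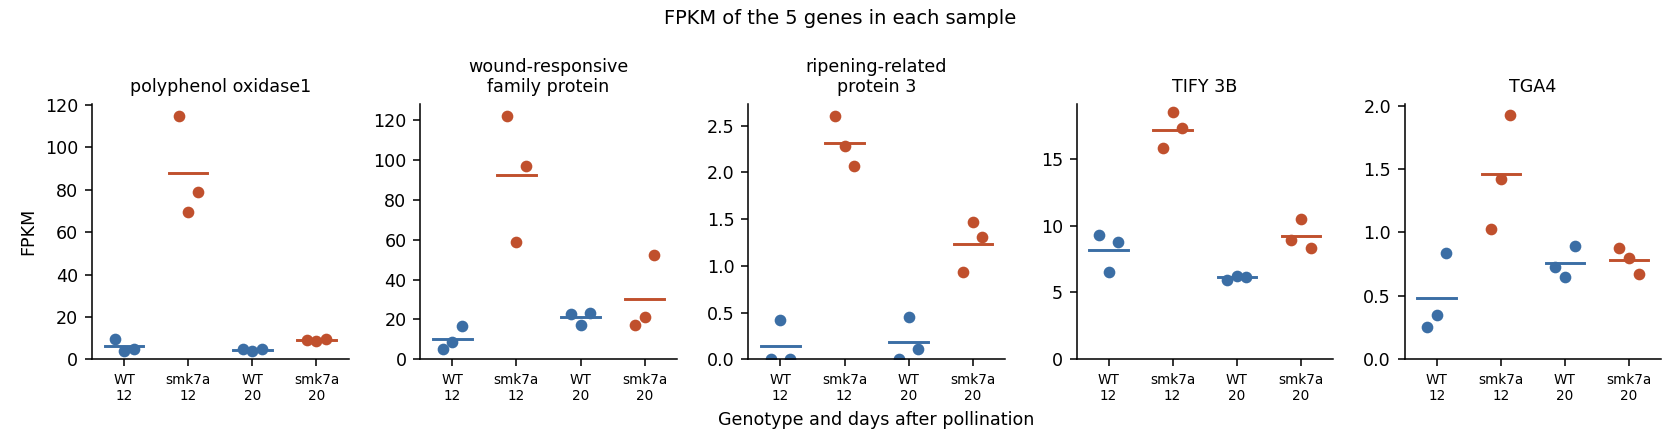
Expression of the 5 genes (y axis, FPKM, a separate linear scale for each gene) in the 12 samples, grouped on the x axis by genotype and days after pollination. Points are replicates and horizontal lines group means. In each panel the 3 *smk7a* samples at 12 DAP are the highest of the 12.

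At 12 DAP all 5 genes were higher in *smk7a* without overlap, which was how they had been picked, and nothing is read from this count. Among all genes tested, 51.5% were higher without overlap, 18.6% were higher past both thresholds and 4.11% lower. The log2FC was 3.84 (SE 0.33) for polyphenol oxidase1, which had the largest value of the 365 genes at the pseudocount used. It was 3.79 (SE 0.71) for ripening-related protein 3 (1.56 with a pseudocount of 1 and 6.04 with a pseudocount of 0.01) and 3.27 (SE 0.43) for the wound-responsive gene. The place of ripening-related protein 3 in this order changes with the pseudocount. TGA4, at 1.51 (SE 0.48), and TIFY 3B, at 1.07 (SE 0.17), had 28 and 62 genes above them. Relative to the median of all genes the values were 3.36, 3.32, 2.79, 1.03 and 0.59 in the same order. With median of ratios scaling 3 of the 5 genes passed both thresholds, compared with 7.67% of all genes higher and 8.22% lower past both thresholds. TIFY 3B and TGA4 were the genes that no longer passed. Ripening-related protein 3 and TGA4 exceeded 1 FPKM at 12 DAP in the 3 *smk7a* samples alone, so they entered the fit through the group in which they were high. Without any single replicate of *smk7a* they missed the filter and were not tested, and the other 3 genes passed. Without replicate 2 of the WT, TIFY 3B (log2FC 0.92) and TGA4 (1.39) did not pass, and without replicate 1 of the WT TGA4 did not (1.22).

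At 20 DAP, of the 5 genes, 3 were expressed enough to be tested, and polyphenol oxidase1 alone passed both thresholds. Among all genes tested, 14.3% were higher and 1.49% lower past both thresholds. Polyphenol oxidase1 rose with a log2FC of 1.001 (SE 0.11, 95% CI 0.75 to 1.25, adjusted p = 0.000241 from limma), or 2.001-fold, which is at the edge of the fold-change threshold. Relative to the median of all genes its log2FC was 0.47, and 47 of the 336 genes had a larger one. Under median of ratios scaling the log2FC was 0.44 (adjusted p = 0.00674 from limma), below the fold-change threshold, so that it no longer passed, while 3.87% of all genes were higher and 4.46% lower past both thresholds. Without replicate 3 of *smk7a* the log2FC was 0.97 and without replicate 2 of the WT it was 0.93, and polyphenol oxidase1 did not pass in either case.

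TIFY 3B was higher in *smk7a* at 20 DAP by a log2FC of 0.58 (SE 0.12, 95% CI 0.31 to 0.85, adjusted p = 0.00296 from limma), a fold change of 1.49. This was close to the median of all genes, from which it differed by 0.04, and 65.8% of the genes tested were higher with an adjusted p-value under 0.05 at any fold change. After median of ratios scaling its log2FC was 0.02 (95% CI -0.25 to 0.29). The comparison of TIFY 3B at 20 DAP was known beforehand, so its p-values here and below are given as a description. For the wound-responsive gene the log2FC was 0.35 (SE 0.36, 95% CI -0.48 to 1.18, adjusted p = 0.398 from limma), within the spread between replicates. Without replicate 3 of *smk7a* it was -0.13, and with median of ratios scaling -0.22.

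Ripening-related protein 3 and TGA4 did not reach the filter at 20 DAP, and their values come from the fit with no filter, which held 535 genes. Ripening-related protein 3 had a log2FC of 2.53 (SE 0.59, 95% CI 1.13 to 3.93, adjusted p = 0.0124 from limma in that fit), with 1 gene above it. Since its WT values were at or near 0, this number depends on the pseudocount. TGA4 had a log2FC of 0.04 (SE 0.23, 95% CI -0.51 to 0.59, adjusted p = 0.886 from limma), an interval that includes the median of 0.47 of that fit. The *smk7a* and WT values at 20 DAP did not overlap for polyphenol oxidase1, ripening-related protein 3 and TIFY 3B (two-sided exact permutation test, p = 0.1 for each, the smallest that 3 against 3 samples allow). Higher values without overlap were found for 67.9% of all genes tested at this stage. Of the tested genes described here, polyphenol oxidase1 and TIFY 3B were among these and the wound-responsive gene was not, which does not set them apart. The share among genes below the filter was not taken.

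**Figure D2:**
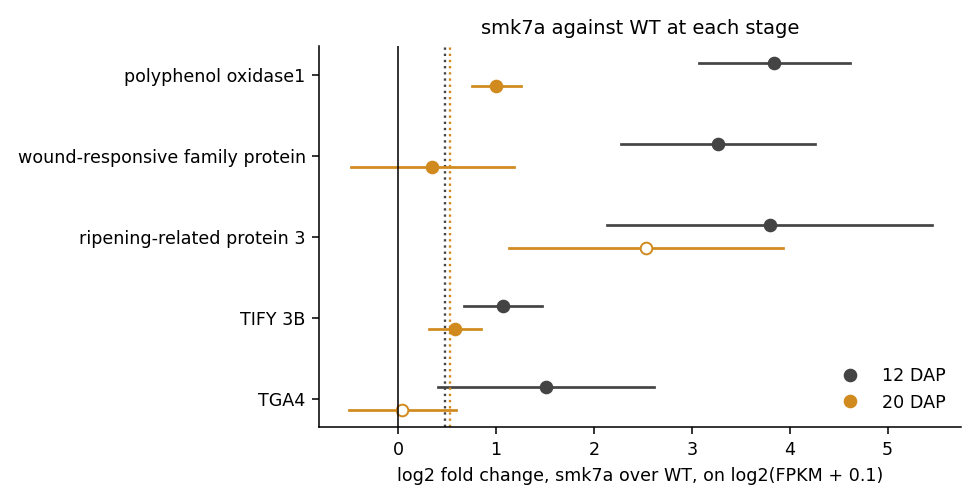
Log2FC of *smk7a* over the WT (x axis, on log2(FPKM + 0.1)) with its 95% confidence interval from limma for each gene at 12 DAP (gray) and 20 DAP (orange). Dotted lines mark the medians of all genes tested, 0.48 and 0.53, and open circles mark genes fitted without the filter. Polyphenol oxidase1 moves from 3.84 to 1.001 and the wound-responsive gene from 3.27 to 0.35.

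The log2FC of each of the 5 genes was smaller at 20 DAP than at 12 DAP. Since the comparison at 12 DAP chose the genes, a smaller value at the other stage could follow from that choice alone, and no test is given. The difference (20 DAP minus 12 DAP) was -2.84 (SE 0.38) for polyphenol oxidase1 and -2.92 (SE 0.63) for the wound-responsive gene. It was -1.26 (SE 1.03) for ripening-related protein 3, -1.47 (SE 0.55) for TGA4 and -0.49 (SE 0.21) for TIFY 3B. The median difference of all 375 genes in this fit was 0.15.

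The change from 12 to 20 DAP differed between the genes. In *smk7a* kernels all 5 were lower at 20 DAP than at 12 DAP without overlap, as were 53.1% of the 375 genes tested, with the mean of polyphenol oxidase1 lower 9.63-fold, that of the wound-responsive gene 3.06-fold, and those of the others between 1.86-fold and 1.87-fold. In WT kernels the mean of the wound-responsive gene was 2.08-fold higher at 20 DAP than at 12 DAP, and TIFY 3B was 1.34-fold lower, both without overlap, while the other 3 genes overlapped between the stages. Among all genes tested in the WT, 4.53% were higher and 60.5% lower at 20 DAP without overlap. For the wound-responsive gene the lowest WT value at 20 DAP (17.4 FPKM) was just above the highest at 12 DAP (16.6 FPKM). *Zm00001d002161*, described below, was also higher in the WT at 20 DAP without overlap (mean 1.88-fold), while *Zm00001d002158* and *Zm00001d002159* overlapped. On the log2 scale the change from 12 to 20 DAP of the wound-responsive gene was 1.19 (SE 0.45) in the WT and -1.72 (SE 0.45) in *smk7a*, where the medians of all genes were -0.54 and -0.44. Both kinds of comparison reuse samples of 12 DAP and are given without a test. Set beside the WT at 12 DAP, *smk7a* at 20 DAP was higher without overlap for the wound-responsive gene (mean 2.98-fold) and for ripening-related protein 3, as for 21.9% of all genes tested, and overlapped for the other 3 genes.

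The wound-responsive gene is 1 of 4 genes with consecutive identifiers and wound-related descriptions, *Zm00001d002158* to *Zm00001d002161*. At 12 DAP *Zm00001d002158* rose from 6.45 ± 3.92 FPKM to 21.3 ± 5.22 FPKM (SD, n = 3 each), with a log2FC of 1.87 (SE 0.44, adjusted p = 0.00974 from limma), but an adjusted p of 0.0652 under median of ratios scaling. *Zm00001d002161* rose from 3.72 ± 1.11 FPKM to 14.2 ± 6.34 FPKM (SD, n = 3 each), a log2FC of 1.86 (SE 0.35, adjusted p = 0.00426 from limma). *Zm00001d002159*, named here for its place although it did not pass, had 0.97 (SE 0.40, adjusted p = 0.0764 from limma). *Zm00001d002160* had been picked for its values at this stage. Its larger fold change among these neighbors, and its share in their sum at 12 DAP, could follow from that choice and are given as a description.

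Near-identical copies could exchange reads, so the sum over the 4 genes was also taken. It was 24.4 to 57.9 FPKM in the WT and 120 to 196 FPKM in *smk7a* at 12 DAP, and 47.1 to 94.2 FPKM and 43.0 to 136 FPKM at 20 DAP. The share of *Zm00001d002160* in this sum was 27.0% ± 9.77 in the WT and 56.8% ± 6.97 in *smk7a* at 12 DAP, and 31.2% ± 6.21 and 32.3% ± 12.1 at 20 DAP (SD, n = 3 each). At 20 DAP none of the 4 genes passed, with log2FC values between -0.42 and 0.43 and adjusted p-values from 0.340 to 0.478 from limma. Replicate 1 of *smk7a* at 20 DAP was the lowest of its group for all 4. That sample also held the least BETL4 of its group, 54.7 FPKM against 151 and 156 FPKM, and the least of the photosynthesis gene *Zm00001d001857*, 0.313 FPKM against 3.62 and 3.44 FPKM. Their part in the lower values of this sample was not tested. Without the sample the log2FC of *Zm00001d002160* at 20 DAP was 0.67 (adjusted p = 0.105 from limma).

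**Figure D3:**
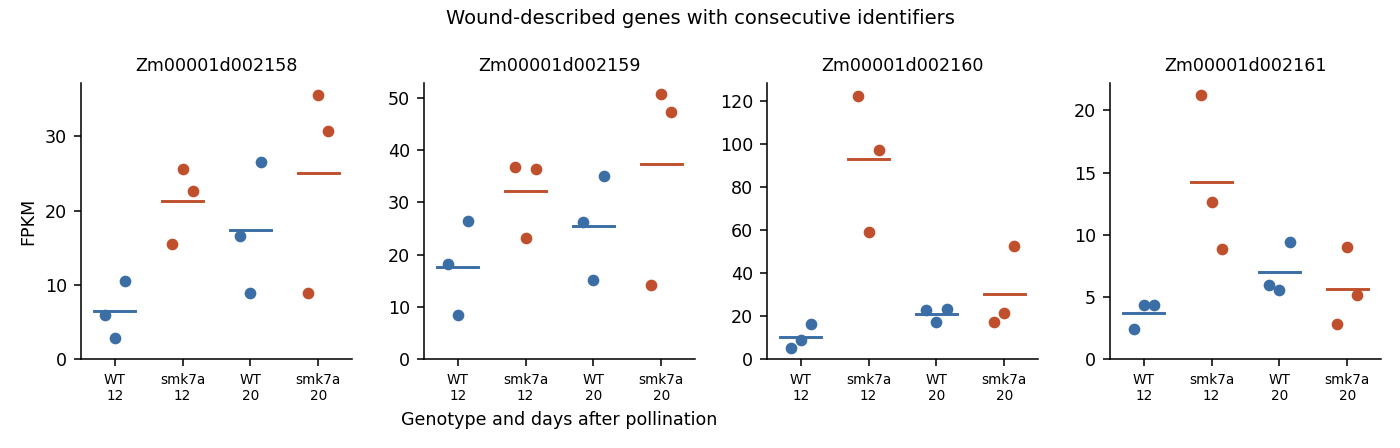
Expression (y axis, FPKM, a separate linear scale for each gene) of the 4 genes with wound-related descriptions and consecutive identifiers in the 12 samples, by genotype and days after pollination. Points are replicates and lines group means. The separation at 12 DAP is widest for *Zm00001d002160*, and at 20 DAP the genotypes overlap for all 4 genes.

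Other genes were collected by matching the deposited descriptions, GO terms and pathway names, which gave 34 genes besides the 5. The defense search terms included ripening-related, which also brought in *Zm00001d002057*, so a match does not show a role in defense. For the wound and jasmonate terms, 6 of 7 genes were tested at 12 DAP, of which 3 rose, where 18.6% of all genes did, and the others did not pass. Their median log2FC was 1.42, compared with 0.48 over all genes. This count and median include *Zm00001d002158*, *Zm00001d002159* and *Zm00001d002161*, the neighbors of the picked wound-responsive gene, which could exchange reads with it if near-identical. Outside these neighbors the values were 0.57, 0.81 and 2.07, and only the last passed. At 20 DAP 1 of 6 rose, where 14.3% of all genes did, with a median of 0.43 against 0.53. Under median of ratios scaling 2 of 6 rose at 12 DAP, where 7.67% of all genes did. Over all the lists, 3 of 17 genes rose at 20 DAP, near the 14.3% of all genes. Without replicate 1 of *smk7a* 6 did, and the share of all genes in that fit was not taken, so nothing is read from this rise. No enrichment test was run on these counts.

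The gene that rose at both stages was *Zm00001d002000* (lipoxygenase6). Many lipoxygenases oxidize polyunsaturated fatty acids, a step toward jasmonate and other oxylipins. Whether the product of this gene does so is not shown by these data. Its replicates were at 12.4, 11.6 and 13.7 FPKM in the WT and at 51.7, 51.6 and 55.9 FPKM in *smk7a* at 12 DAP. At 20 DAP they were at 4.65, 3.34 and 3.79 FPKM and at 9.90, 10.3 and 10.5 FPKM, respectively. The groups were tight and did not overlap at either stage. The log2FC was 2.07 (SE 0.13, adjusted p = 0.000116 from limma) at 12 DAP and 1.37 (SE 0.14, adjusted p = 0.000133 from limma) at 20 DAP. With median of ratios scaling it was 1.59 and 0.81, the latter below the fold-change threshold.

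Of the 2 other genes for phenolic oxidation, both peroxidase genes, *Zm00001d002004* (Peroxidase 16) was tested. Class III peroxidases oxidize phenols with hydrogen peroxide in the cell wall. It was at 16.5, 12.8 and 14.8 FPKM in the WT and at 4.999, 5.06 and 5.98 FPKM in *smk7a* at 20 DAP. It fell by 1.44 on the log2 scale (SE 0.13, adjusted p = 0.000104 from limma), opposite to polyphenol oxidase1 at that stage. At 12 DAP its log2FC was 0.18 (SE 0.18, adjusted p = 0.437 from limma).

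Among the 25 defense genes, 14 were tested at 12 DAP, of which 3 rose, close to the 18.6% of all genes, and the median log2FC of the 14 was 0.48, as over all genes. Of the 3, *Zm00001d000117* and *Zm00001d000390* exceeded 1 FPKM in the *smk7a* samples alone and so entered the fit through the group in which they were high, and among the other 12 genes 1 rose. The 3 genes were *Zm00001d000117* (a glucan endo-1,3-beta-glucosidase), with 2.77 (SE 0.86, adjusted p = 0.0291 from limma), *Zm00001d000390* (a RING zinc finger protein), with 1.97 (SE 0.46, adjusted p = 0.00916 from limma), and *Zm00001d001837* (a homeodomain-like protein with a salicylate term), with 1.23 (SE 0.14, adjusted p = 0.000502 from limma). Under median of ratios scaling *Zm00001d000390* alone of these passed. At 20 DAP 2 of 10 rose, where 14.3% of all genes did, with a median of 0.49 against 0.53. These were *Zm00001d001774* (CCR4-associated factor 1 homolog 11, a family of mRNA deadenylases), with 2.05 (SE 0.24, adjusted p = 0.000263 from limma), and *Zm00001d001907* (ethylene-responsive transcription factor 7), with 1.25 (SE 0.36, adjusted p = 0.0141 from limma), of which the latter did not pass under that scaling (adjusted p = 0.211). At 12 DAP both of these had overlapping values, with *smk7a* replicates of *Zm00001d001774* at 19.9, 42.3 and 2.74 FPKM.

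**Figure D4:**
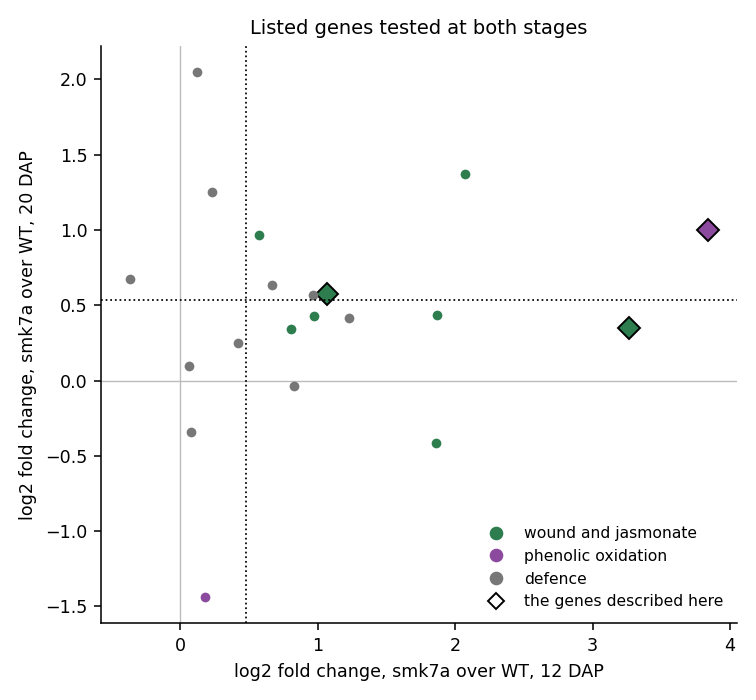
Log2FC of *smk7a* over the WT at 12 DAP (x axis) and at 20 DAP (y axis), both on log2(FPKM + 0.1), for the 20 listed genes tested at both stages. Diamonds are 3 of the 5 genes described here, circles the other 17, colors the lists, and dotted lines the medians of all genes tested (0.48 and 0.53). Polyphenol oxidase1 and the wound-responsive gene lie far to the right, and lipoxygenase6 (2.07, 1.37) is highest among the wound and jasmonate circles on both axes.

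For each of the 5 genes, the genes with the most similar pattern were found by the root mean square difference of the log2(FPKM + 0.1) profiles, each centered on its own mean, over the 12 samples and 375 genes. This is a description of these samples. For polyphenol oxidase1 they were lipoxygenase6, at 0.72, and *Zm00001d002193* (Xyloglucan endotransglucosylase/hydrolase protein 9, of a family that remodels cell wall xyloglucan), at 0.86. The latter was at 9.76 to 11.3 FPKM in *smk7a* at 12 DAP and at 1.73 to 5.13 FPKM in the other groups. The profile of polyphenol oxidase1 itself varied by 1.70 around its mean. This variation was 1.29 for the wound-responsive gene, 1.79 for ripening-related protein 3, 0.56 for TIFY 3B and 0.65 for TGA4. The distances are to be read against it, since a gene that varies little is near many others.

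For the wound-responsive gene the closest were *Zm00001d000126*, which is described only by rice gene names, at 0.79, and its neighbor *Zm00001d002161*, at 0.80. For ripening-related protein 3 no gene came nearer than 1.07, the distance of *Zm00001d001915* (no description) and of *Zm00001d001984* (probable amino acid permease 7). TIFY 3B had the closest partners, *Zm00001d002156* (Silencing group B protein) at 0.13 and *Zm00001d001952* (a zinc finger protein) at 0.16. For TGA4 they were *Zm00001d000165* (Bromodomain transcription factor), at 0.34, and *Zm00001d002137* (precursor elicitor peptide1), also at 0.34. Elicitor peptides are released from such precursors in damaged tissue and signal through receptors on other cells. *Zm00001d002137* was at 3.25 to 3.46 FPKM in the WT and at 7.96 to 9.39 FPKM in *smk7a* at 12 DAP, and at 4.24 to 5.99 FPKM and 5.52 to 6.48 FPKM at 20 DAP, and the values at 20 DAP overlapped as those of TGA4 did.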

How the data were processed

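The 12 samples were whole kernels of 4 groups with 3 replicates each, both genotypes being sampled at 12 DAP and at 20 DAP. Per the labels and the paper's methods, the authors trimmed the reads (Trimmomatic), mapped them with HISAT2 to B73 RefGen_V4, kept perfectly matching reads, and deposited FPKM per gene, while the program that made the FPKM is not given in the sources used here. The library kit was stranded, and whether strand was used in counting is not given. The table analysed here is cut off after 720 genes, inside the annotation of the last, with 153 genes at 0 throughout, and it held 0 further value columns. Its identifiers matched the gene name table (assembly Zm-B73-REFERENCE-NAM-5.0) for 0 genes, so no coordinates or sequences are given. A check for whole steps found 21.9% of 4126 values within 0.1 of a multiple of the lowest, where even spacing gives 20%. The check took genes of any level, so it cannot show whether low FPKM came in steps. Depth and counting error are unknown.

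FPKM were used as deposited. The tool was limma (version 3.58.1, R version 4.3.3, eBayes with trend), run on log2(FPKM + 0.1), with Benjamini-Hochberg adjustment over all genes tested, for the 6 samples of each stage, and over 12 samples for stage differences. Python (3.11.15) with matplotlib (3.10.9), numpy (2.4.6) and pandas (2.3.3) served for tables and figures. The fitting step was first tested on simulated data. The limma p-values set a difference between groups against the spread between replicates, estimated for each gene with help from the other genes tested. How many kernels that spread covers is not given. The 5 genes, the gene lists and the tests were chosen with earlier results of these data known. The genes named are the 5, the 2 closest in pattern to each, and listed genes past both thresholds, while others are marked in the text or are markers. Alternatives were pseudocounts of 0.01 and 1, 2 other filters, median of ratios scaling, no variance trend, sample weights, the replicate block, a fit over 12 samples, no fold-change threshold, and leaving out each replicate.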

Additional observations from a re-analysis of the deposited data

Results flagged for a closer look

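The difference between the stages in the log2 fold change of *smk7a* over the WT (20 DAP minus 12 DAP) was tested in 1 limma model over the 12 samples for the 21 listed genes that are not among the 5. For 5 of them the adjusted p-value was under 0.05, as it was for 79 (21.1%) of all 375 genes tested. Peroxidase 16 (*Zm00001d002004*) had a difference of -1.62 (SE 0.22, adjusted p = 0.000385 from limma), with a lower level in *smk7a* at 20 DAP. *Zm00001d002161*, next to the wound-responsive gene, had -2.28 (SE 0.58, adjusted p = 0.0179 from limma). For lipoxygenase6 (*Zm00001d002000*), which was higher in *smk7a* at both stages, it was -0.70 (SE 0.18, adjusted p = 0.0200). *Zm00001d001837* (homeodomain-like) had -0.81 (SE 0.25, adjusted p = 0.0375), and *Zm00001d002085* (Glycerol kinase) -0.87 (SE 0.18, adjusted p = 0.00538). At 12 DAP *Zm00001d002085* averaged 8.93 ± 0.958 FPKM in the mutant against 4.98 ± 0.469 FPKM in the WT, whereas the 20 DAP means were 5.09 ± 0.395 FPKM in the mutant against 5.22 ± 0.248 FPKM (SD, n = 3).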

How the results depend on the processing

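Of the 5 genes, 1 passed both thresholds at 20 DAP, where 14.3% of all genes tested were higher past both. The number among the 5 was 0 with a pseudocount of 1, with median of ratios scaling or with sample weights. It was 2 with no filter, with 1 FPKM in at least 1 sample, with 1 fit over 12 samples or with no fold-change threshold. Leaving out each replicate gave 0 to 1. At 12 DAP, the stage at which they had been picked, 5 passed, where 18.6% of all genes tested were higher past both thresholds. With a pseudocount of 1 or median of ratios scaling 3 did, and 3 to 5 with a replicate left out. Without any 1 replicate of *smk7a*, *Zm00001d002055* and *Zm00001d002143* had too few samples above 1 FPKM to be tested, which gives the 3. Of the 21 listed genes tested at 12 DAP, 6 were higher (18.6% of all genes). With median of ratios scaling 3 were (7.67% of all genes), and 10 with no fold-change threshold. Of the 17 listed genes tested at 20 DAP, 3 were higher (14.3% of all genes). With median of ratios scaling 1 was (3.87% of all genes), and 6 with no fold-change threshold (65.8% of all genes). With a replicate left out 3 to 6 were higher (6 without replicate 1 of *smk7a*). Shares of all genes under the other settings were not taken. Of the listed genes 1 was lower at 20 DAP (1.49% of all genes), and with no filter 2 were lower at 20 DAP and 1 at 12 DAP. From 12 to 20 DAP in the WT, 2 of the 5 genes were lower, and 0 with median of ratios scaling, which turned the log2 fold change of *Zm00001d000001* to 0.13 and of *Zm00001d002029* to 0.11. That of *Zm00001d002055* lay between -0.24 and 1.19 with a replicate left out, and was -0.0012 without replicate 1 or 3 of the WT at 12 DAP and -0.24 without replicate 2 of the WT at 20 DAP. For *Zm00001d002160* at 20 DAP it turned to -0.22 with this scaling and lay between -0.13 (without replicate 3 of *smk7a*) and 0.67 (without replicate 1) with a replicate left out. The log2 change of *Zm00001d002160* from 12 to 20 DAP in the WT lay between 0.80 and 1.71 over 14 alternatives. In 7 of them it no longer passed both thresholds. The log2 fold change of *Zm00001d002055* at 12 DAP ranged from 1.56 to 6.04, since 2 WT values were listed at 0. The cause of the other changes was not tested.

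With the replicate number as a block, 1 of the 5 genes passed at 20 DAP and 5 at 12 DAP, as without it. The deviations of same-numbered samples correlated at -0.01 on average at 12 DAP and -0.07 at 20 DAP. For differently numbered samples the averages were 0.007 and 0.03. With 3 replicates per group this cannot show whether the samples were paired, for example by ear.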

Other observations

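Within groups, the replicates of the 5 genes did not share an order. At 12 DAP, *smk7a* replicate 1 was the highest and replicate 2 the lowest for polyphenol oxidase1 and for the wound-responsive gene, while replicate 2 was the highest for TIFY 3B and replicate 3 for TGA4. In the WT at 20 DAP, replicate 2 was the lowest and replicate 3 the highest for *Zm00001d002158*, *Zm00001d002159* and BETL4, at 8.90, 15.2 and 88.0 FPKM against 26.5, 35.0 and 132 FPKM. In *smk7a* at 20 DAP, replicate 1 was the lowest for these 3 genes, at 8.87, 14.2 and 54.7 FPKM.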
